A study of Mus musculus with 4 samples.

Results

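The genes described here encode the guidance cues of the semaphorin, ephrin, netrin and Slit families and their receptors. They were chosen by gene symbol: semaphorins, plexins, neuropilins, A and B ephrins, A and B Eph receptors, Slits, Robos, netrins and Unc5 receptors. The platform annotation held 56 such genes among 12393 genes on the array, on 95 probe sets. A further 12 RefSeq genes with such symbols, among them Ephb1, Ephb2, Robo2, Plxna4 and Plxnb1, had no probe set named here.

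Expression was measured on Affymetrix arrays in C2C12 cells, an established line of mouse myoblasts, the precursors of skeletal muscle fibres. All cells had been grown in medium with 20% serum and were then held for 48 hours in semi-solid methyl cellulose, a suspension without attachment in which they leave the cell cycle for the reversible resting state G0. The 2 control arrays came from such cells without added ligand, by their treatment label (the protocol text is the same for every sample and mentions the ligand), and the 2 Wnt3A arrays from cells given purified Wnt3A protein at 50 ng/ml, a secreted ligand of the β-catenin pathway. The labels call the replicates biological and are silent on whether they came from separate cultures, so p-values measure only the spread between these arrays. Signals are given on a log2 scale, a difference is Wnt3A minus control, SE is the standard error of the moderated fit, and each group has n = 2 arrays. The small number of arrays limits the precision of every value.

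Guidance cues were named for steering growing axons, and they also direct cell migration, vessel growth and the contact of muscle with nerve. Semaphorins bind plexins, and the secreted class of them mostly needs a neuropilin as coreceptor. Ephrins are held on the cell surface and bind Eph receptor tyrosine kinases on neighbouring cells, with signals running in both directions. Slit proteins are secreted and bind Robo receptors, while netrins bind DCC, neogenin and the Unc5 receptors. Muscle precursors make several of these cues; Sema3a, for one, is a secreted repellent of motor axons.

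The widest differences were on the higher side, with means 3.17-fold higher for Efnb2, 2.86-fold for Sema5a, 2.08-fold for Nrp2 and, on the strength of 1 array, 3.65-fold for Sema4f. On the lower side the widest were Ntn1 and Sema3e, both 1.85-fold lower, and Slit2, whose groups overlapped. No guidance gene passed an adjusted p of 0.05 in limma. A mean signal above 2.18, which left out the dimmer 25% of the array's genes, was reached by 42 of the 56 members, and these were tested. Of the 42, 0 passed in limma; over all 9294 tested genes the count was also 0 (0.0%). At an unadjusted p under 0.05 in limma there were 4 members, beside 5.68% of all tested genes: 2 were higher, where the background was 2.46%, and 2 were lower, where it was 3.22%. The lowest adjusted p of a member was that of Efnb2, 0.498 in limma.

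By size, 4 members had means that differed 2-fold or more while both Wnt3A arrays stood on the same side of both controls, and all 4 were higher. Over all tested genes 1.54% met that rule on the higher side and 2.09% on the lower side. With the dimmer 50% of genes left out, the 4 became 2, since Sema4f and Sema5a then went untested. Without regard to size, the groups did not overlap for 14 tested members, which is 33.3% of the 42 beside 34.4% of all tested genes. That share was near the background. By direction there were 9 on the higher side, beside 14.7% of all tested genes, and 5 on the lower side, beside 19.8%. The median difference of the tested members was 0.04, with 22 higher and 20 lower, beside a median of -0.02 and 47.0% higher among all tested genes. The members' median was below 0 with no filter on dim genes (-0.031), with the dimmer 50% left out (-0.066) or without control replicate 1 (-0.027). For 32 of the 42 members the arrays of a group lay farther apart than the group means did, which was also so for 78.6% of all tested genes.

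**Figure D1:**
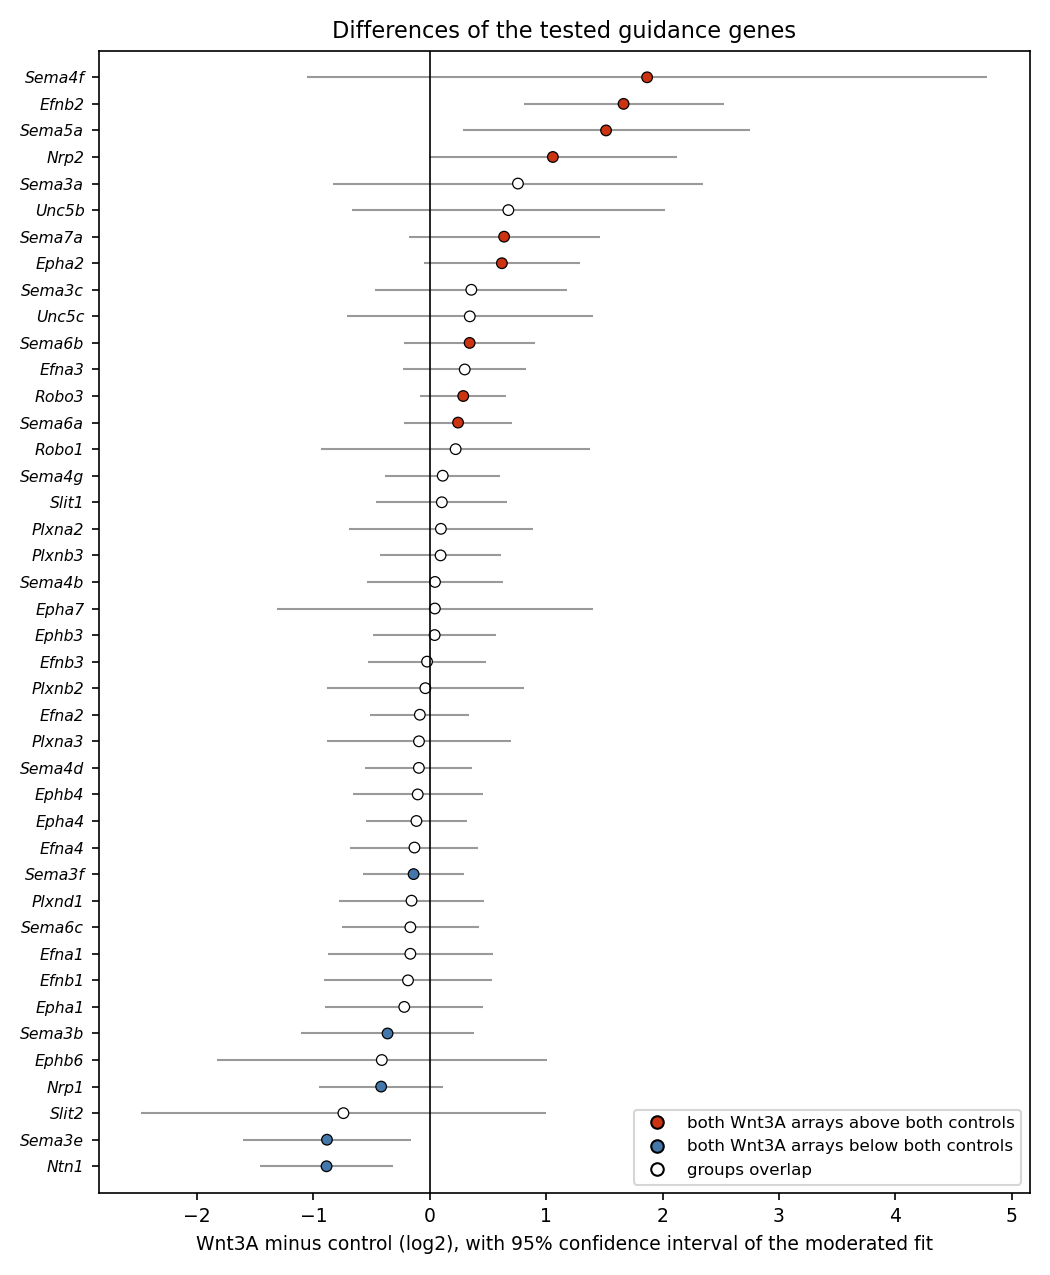
The difference between Wnt3A and control in log2 units is plotted for each of the 42 tested guidance genes, with the 95% confidence interval of the moderated limma fit (n = 2 arrays per group). Points are filled where the 2 groups do not overlap; the interval excludes 0 for Efnb2, Sema5a, Sema3e and Ntn1 and includes it for Sema4f, which has the widest interval.

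Scaling the arrays to their hybridization controls, bacterial and phage transcripts added in known amounts, shifted the median over all tested genes upward, from -0.02 to 0.30. It adds the same constant to the difference of every gene, so any small negative difference turns positive. Relative to the median of all tested genes the members stayed in place, as Efnb1 did at -0.167 with and without the scaling. Under that scaling 14 of the 42 tested members changed direction, all of them from a small negative to a positive difference. They were Efna1, Efna2, Efna4, Efnb1, Efnb3, Epha1, Epha4, Ephb4, Plxna3, Plxnb2, Plxnd1, Sema3f, Sema4d and Sema6c. The share of all tested genes that changed direction in this way was not counted. Differences and directions below are those of the deposited values unless another setting is named. Where a sign is said to turn under this scaling, the same constant was added to every gene.

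Efnb2, which encodes ephrin-B2, a transmembrane ligand of arterial and perivascular cells, had the lowest p of all members. On its brightest probe set, 1419639_at, the signal was 5.98 and 6.78 on the control arrays and 8.15 and 7.94 on the Wnt3A arrays. Both Wnt3A arrays lay above both controls, and the gap between the groups was wider than the gap between the control arrays. The difference was 1.66 (SE 0.33, 95% confidence interval 0.81 to 2.52), which is 3.17-fold higher with Wnt3A, and it did not pass over all genes (adjusted p = 0.498 in limma). Its next brightest probe set read 4.73 and 5.76 on the control arrays and 6.95 and 6.77 with Wnt3A, which is 1.61 higher. The remaining 2 probe sets had means of 2.64 and 2.29, close to the limit, and differed by 0.08 and 0.67; the mean over all its probe sets differed by 1.01. The call depended on the scaling: with the arrays scaled to hybridization controls, Efnb2 was the 1 member that passed (difference 1.98, adjusted p = 0.035 in limma), and over all its alternatives the adjusted p ran from 0.035 to 0.999. Leaving out 1 array at a time gave differences from 1.27 to 2.06.

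The other B ephrins and the B Eph receptors differed by at most 0.41 in size, and that was at Ephb6. Efnb1, also a ligand of B receptors, read 6.06 and 6.18 on the control arrays and 6.21 and 5.65 with Wnt3A, and the groups overlapped. Its difference of -0.19 (95% confidence interval -0.91 to 0.53) turned positive once the arrays were scaled to hybridization controls. Efnb3 differed by -0.02, and its sign turned as well. Ephb4, the main receptor of ephrin-B2 in vessels, read 4.90 and 4.93 on the control arrays and 4.71 and 4.91 with Wnt3A, and its difference of -0.10 (95% confidence interval -0.66 to 0.45) turned positive under the same scaling. The receptor gene Ephb3 lay within 6.03 and 6.13 on all 4 arrays, with a difference of 0.04 (95% confidence interval -0.49 to 0.57). On the values as deposited and the brightest probe set, the whole intervals of Efnb1, Efnb3, Ephb4 and Ephb3 lay within a 2-fold difference in either direction. The other Efnb1 probe sets differed by -0.07 and -0.52. The latter read 3.96 and 3.87 on the control arrays and 4.36 and 2.44 with Wnt3A. The mean over all Efnb1 probe sets differed by -0.26, with a wider SE of 0.37. Ephb6, a receptor that lacks kinase activity, read 5.09 and 6.51 on the control arrays and 5.68 and 5.10 with Wnt3A. Its groups overlapped, with a difference of -0.41 (95% confidence interval -1.83 to 1.004) that ran from -1.12 to 0.30 on leaving out 1 array at a time.

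A ephrins, which are tied to the membrane by a lipid anchor, and A Eph receptors mostly overlapped between the groups. So did most tested genes, of which 34.4% did not overlap. Of 4 tested A ephrins 1 was higher and 3 lower, between -0.17 and 0.30, and the 3 were all higher after scaling to hybridization controls. Efna1, a ligand of A receptors, differed by -0.17, and by 0.15 after scaling to hybridization controls. Efna5 was under the limit for dim genes as a whole and was not tested; it read 1.82 and 1.28 on the control arrays and 2.44 and 2.02 with Wnt3A. Of 4 tested A receptors 2 were higher and 2 lower, the latter (Epha1 and Epha4) higher after that scaling. Epha2, a receptor of epithelial and many dividing cells, read 4.79 and 4.98 on the control arrays and 5.29 and 5.72 with Wnt3A, so that the groups did not overlap. Its difference was 0.62 (95% confidence interval -0.05 to 1.29), with an adjusted p of 0.917 in limma. Epha7, a receptor found on muscle precursors, read 5.54 and 5.42 on the control arrays and 6.25 and 4.80 with Wnt3A; the Wnt3A arrays lay on either side of the controls.

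**Figure D2:**
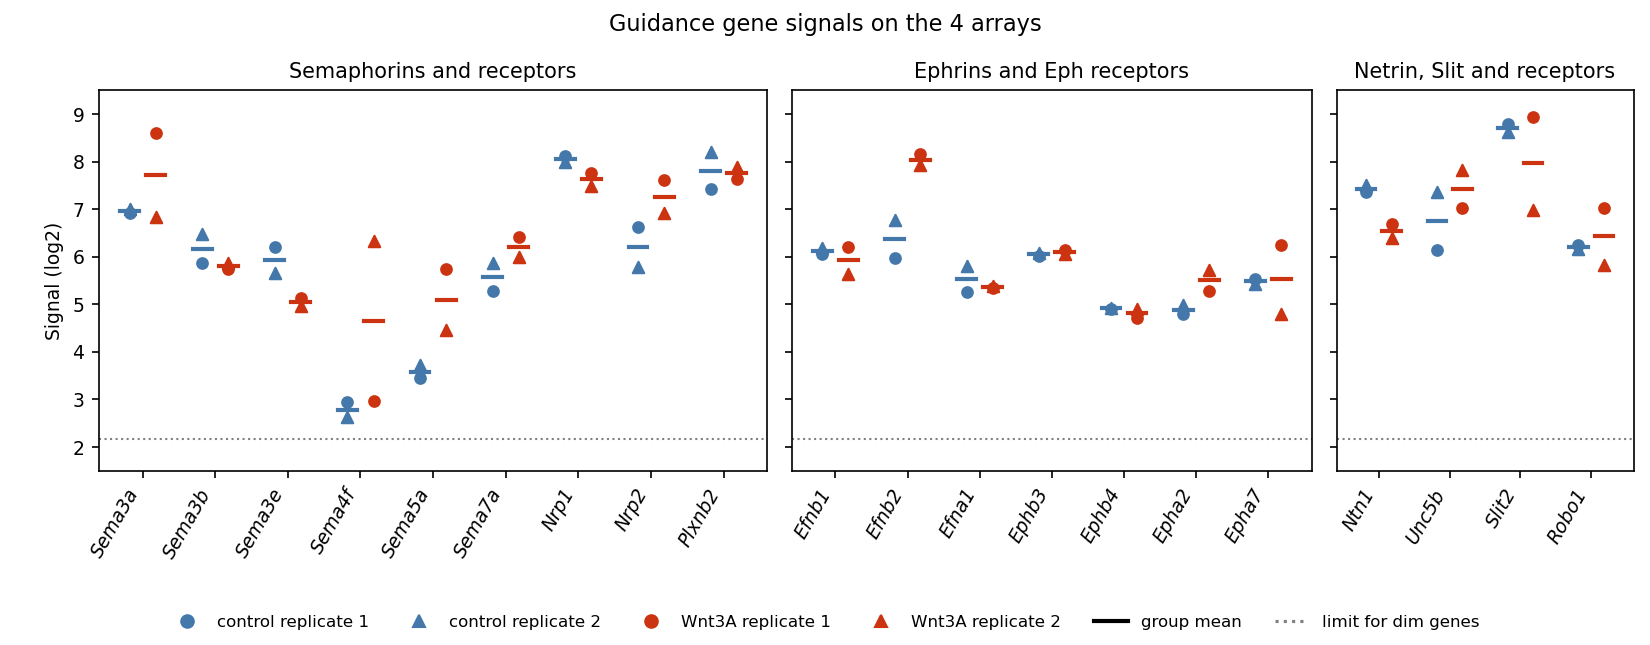
The signal in log2 units is plotted for 20 guidance genes on each of the 4 arrays, circles for replicate 1 and triangles for replicate 2, with bars at the group means and a dotted line at the limit for dim genes. Both Wnt3A points of Efnb2, Sema5a, Nrp2, Sema7a, Epha2 and, narrowly, Sema4f stand above the control points. Those of Ntn1, Sema3e, Nrp1 and, narrowly, Sema3b stand below. The Wnt3A points of Sema3a, Slit2, Robo1, Epha7, Sema5a and Sema4f lie far apart.

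The semaphorins had 17 members on the array, of which 14 were tested, 9 higher and 5 lower, with a median difference of 0.18. Sema5a (1434776_at), a transmembrane semaphorin with thrombospondin repeats, read 3.44 and 3.73 on the control arrays and 5.74 and 4.46 with Wnt3A. Both Wnt3A arrays were above both controls, but they were themselves 1.28 apart. The difference was 1.51 (SE 0.47, 95% confidence interval 0.28 to 2.75), with an adjusted p of 0.809 in limma. It was 0.88 without Wnt3A replicate 1 and 2.15 without Wnt3A replicate 2. A second probe set of Sema5a had a mean of 2.21, close to the limit for dim genes. It read 1.76 and 1.70 on the control arrays and 3.30 and 2.10 with Wnt3A. Both Wnt3A arrays were again above both controls, with replicate 1 the higher, while the order of the control arrays was reversed.

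Sema4f, another transmembrane semaphorin, had the widest difference of the family, and 1 array made it. It read 2.94 and 2.63 on the control arrays and 2.98 and 6.33 with Wnt3A. Only Wnt3A replicate 2 stood apart, and Wnt3A replicate 1 was above the higher control by less than the control arrays differed. The difference was 1.87 (SE 1.12) with all arrays and 0.19 without Wnt3A replicate 2, and 1 probe set represents the gene.

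Sema3a, the secreted repellent, read 6.92 and 7.001 on the control arrays and 8.60 and 6.83 with Wnt3A on its brightest probe set. The groups overlapped, with Wnt3A replicate 1 high and Wnt3A replicate 2 at the level of the controls. The difference was 0.76 (95% confidence interval -0.83 to 2.35), and -0.13 without Wnt3A replicate 1. Its other probe sets, at differences of 1.17 and 0.95, also had their highest value on Wnt3A replicate 1. The former read 5.20 and 5.29 on the control arrays and 7.21 and 5.63 with Wnt3A, without overlap. The latter read 3.99 and 1.88 on the control arrays and 5.96 and 1.80 with Wnt3A, and its groups overlapped.

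Sema3e, a secreted semaphorin that can act through plexin D1 without a neuropilin, was the lowest of the family. On probe set 1419717_at it read 6.20 and 5.66 on the control arrays and 5.13 and 4.96 with Wnt3A, with no overlap. The difference was -0.88 (SE 0.28, 95% confidence interval -1.61 to -0.16), which is 1.85-fold lower with Wnt3A, and the adjusted p was 0.809 in limma. On its other 2 probe sets the differences were -0.97 and -0.91, again without overlap, and scaling to hybridization controls gave -0.56 on the first. Probe sets of one gene share the same 4 RNA samples and are not replicates. Plxnd1, the gene of its receptor, read 6.54 and 6.87 on the control arrays and 6.69 and 6.41 with Wnt3A, and overlapped; its difference of -0.16 turned positive after scaling to hybridization controls.

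Among the remaining semaphorins, Sema7a, which is lipid-anchored and binds integrins and plexin C1, read 5.27 and 5.86 on the control arrays and 6.42 and 5.99 with Wnt3A. The groups did not overlap, and the difference of 0.64 (95% confidence interval -0.18 to 1.46) was about as wide as the gap between the control arrays; it was 0.34 without control replicate 1. Sema3b, a secreted semaphorin, differed by -0.36 on its brightest probe set and by -0.60 and 0.06 on the others. Sema4d and Sema6c, both transmembrane, also had probe sets above the limit for dim genes that differed in sign: -0.09 and 0.29 for Sema4d, -0.17 and 0.02 for Sema6c. Scaling to hybridization controls put the brightest probe sets of Sema4d and Sema6c above 0. These 3 were the only such members of the 17 with several probe sets above the limit. Sema3c, secreted, read 2.44 and 2.21 on the control arrays and 2.26 and 3.09 with Wnt3A, close to the limit and overlapping. The transmembrane Sema4b differed by 0.04 (95% confidence interval -0.54 to 0.63).

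**Figure D3:**
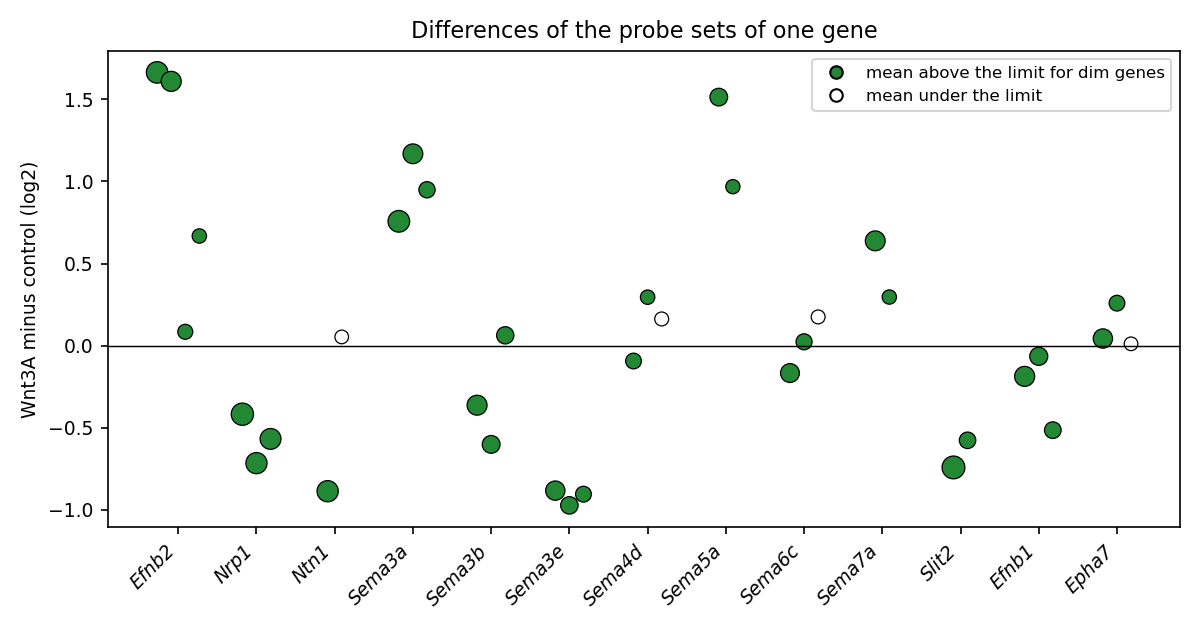
The difference between Wnt3A and control in log2 units is plotted for each probe set of 13 guidance genes with several probe sets, brightest first from left to right within a gene, and larger circles for a higher mean signal. Filled circles have a mean above the limit for dim genes; the 3 circles of Sema3e lie between -0.97 and -0.88, and those of Sema3b, Sema4d and Sema6c fall on both sides of 0.

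The neuropilins, coreceptors of secreted semaphorins and of vascular endothelial growth factor, differed in opposite directions. Nrp2 (1426528_at) read 6.63 and 5.78 on the control arrays and 7.61 and 6.91 with Wnt3A, without overlap. Its difference was 1.06 (SE 0.41, 95% confidence interval -0.01 to 2.12) at an adjusted p of 0.881 in limma, and it was 0.63 without control replicate 2 and 0.71 to 1.48 without each of the other arrays. Nrp1 read 8.11 and 7.99 on the control arrays and 7.77 and 7.49 with Wnt3A, also without overlap and on the lower side. The difference of Nrp1 was -0.42 (SE 0.20, 95% confidence interval -0.95 to 0.12) at an adjusted p of 0.917 in limma. Its other probe sets gave -0.72 and -0.57, again without overlap. The mean over all its probe sets gave -0.57 (SE 0.19, adjusted p = 0.841 in limma). After scaling to hybridization controls the difference on the brightest probe set was -0.10. The contrast between the neuropilins was not itself tested.

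Plexins, the signalling receptors of semaphorins, showed no member with groups apart among the 5 tested, and their differences ran from -0.16 to 0.10. Over all tested genes the groups did not overlap for 34.4%, so overlap was the common state. Plxnb2, a receptor of class 4 semaphorins, read 7.42 and 8.20 on the control arrays and 7.65 and 7.89 with Wnt3A. Its Wnt3A arrays lay between the control arrays, and its difference of -0.04 was 0.28 after scaling to hybridization controls. Plxna1 was too dim to be tested, with 1.68 and 1.79 on the control arrays and 2.09 and 1.94 with Wnt3A.

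Ntn1, the gene of netrin-1, a secreted attractant or repellent depending on the receptor, was lower with Wnt3A on both arrays. On probe set 1454974_at it read 7.36 and 7.51 on the control arrays and 6.69 and 6.40 with Wnt3A. The arrays of each group lay close together, with no overlap between groups. The difference was -0.89 (SE 0.22, 95% confidence interval -1.46 to -0.32), which is 1.85-fold lower, and the adjusted p was 0.648 in limma. Leaving out 1 array at a time gave -1.03 to -0.74, scaling to hybridization controls -0.57, and the mean of both probe sets -0.42. A second probe set of Ntn1 stayed between 1.80 and 1.97 on all arrays, under the limit, and showed no such order. Ntn3 and Ntn4 were under the limit.

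Of the netrin receptors, Unc5b read 6.15 and 7.37 on the control arrays and 7.03 and 7.83 with Wnt3A. The groups overlapped, and on both the control and the Wnt3A side replicate 2 was the higher array. Its difference was 0.67 (95% confidence interval -0.67 to 2.02), and each array moved it by over 1.5 times. With the first control array left out it was 0.067, and with the second 1.28; leaving out the first Wnt3A array gave 1.08 and the second 0.27. Unc5c differed by 0.34 with overlapping groups. Neo1, the gene of neogenin and no member by its symbol, lay between 7.17 and 7.41 on all arrays, and Dcc was near the limit for dim genes at 2.30 to 2.71.

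Slit2, a secreted repellent, read 8.79 and 8.62 on the control arrays and 8.94 and 6.99 with Wnt3A. The groups overlapped: Wnt3A replicate 1 was the highest of the 4 arrays and Wnt3A replicate 2 the lowest. The difference was -0.74 (95% confidence interval -2.48 to 0.995) with all arrays and 0.23 without Wnt3A replicate 2. Its second probe set ordered the Wnt3A arrays likewise, at 4.29 and 2.23. Robo1, a Slit receptor, read 6.26 and 6.17 on the control arrays and 7.04 and 5.83 with Wnt3A, which again put the Wnt3A arrays on either side of the controls. Slit3 was too dim to be tested, with 1.87 and 2.34 on the control arrays and 2.02 and 2.27 with Wnt3A. Robo3 differed by 0.29 without overlap, but its control mean of 2.05 was under the limit, so that it was tested through its Wnt3A arrays; the same held for Efna3.

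A gap of over 1 between the Wnt3A arrays was found in 6 tested members, 14.3% of them beside 9.64% of all tested genes. Slit2, Sema3a, Epha7, Sema5a and Robo1 were higher on Wnt3A replicate 1 and Sema4f on Wnt3A replicate 2. Between the control arrays such a gap was found in Ephb6 and Unc5b, which is 4.76% beside 4.42%. Over all tested genes, Wnt3A replicate 1 correlated at 0.978 and 0.97 with control replicates 1 and 2 and at 0.957 with Wnt3A replicate 2. The control arrays correlated with each other at 0.978. Wnt3A replicate 2 correlated with them at 0.936 and 0.956. It was also the array with the lowest summed muscle markers. Of 7 such markers, all above the limit, the summed signal was 50.2 and 53.1 on the control arrays and 52.0 and 45.8 with Wnt3A. Myod1, which commits cells to muscle, read 6.84 and 7.11 on the control arrays and 6.32 and 3.62 with Wnt3A, and the myoblast cadherin gene Cdh15 read 5.39 and 5.56 on the control arrays and 5.69 and 4.04 with Wnt3A. The muscle markers did not all move one way. Myf5, an early regulator of muscle precursors, read 6.57 and 5.99 on the control arrays and 7.77 and 7.65 with Wnt3A, higher on both, and Chrna1, a subunit of the acetylcholine receptor, read 8.75 and 9.70 on the control arrays and 9.60 and 9.73 with Wnt3A. Myog, a regulator of differentiation, read 8.0005 and 9.27 on the control arrays and 7.42 and 6.66 with Wnt3A, lower on both. The part of these markers in the gaps of the guidance genes was not tested.

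Markers of other cells that use guidance cues were mostly dim. All 5 endothelial markers, Pecam1 and Cdh5 among them, were under the limit, with summed signals of 8.02 and 8.20 on the control arrays and 7.63 and 8.03 with Wnt3A. Of 5 neuronal markers 2 were above it, Stmn2, between 8.79 and 10.21, and Syp, close to the limit; their sum ran from 15.8 to 16.2 in control and from 15.2 to 15.9 with Wnt3A. Of 2 glial markers on the array Sox10 was above it, between 3.63 and 3.79, and the sum was 5.99 and 6.29 on the control arrays and 5.76 and 5.61 with Wnt3A. Of 4 leukocyte markers Cd68 and Laptm5 were above it, Ptprc was at most 1.28, and the sum was 8.88 and 8.12 on the control arrays and 8.19 and 8.49 with Wnt3A. In bulk RNA, fewer cells of a type and less RNA per cell cannot be told apart.

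**Figure D4:**
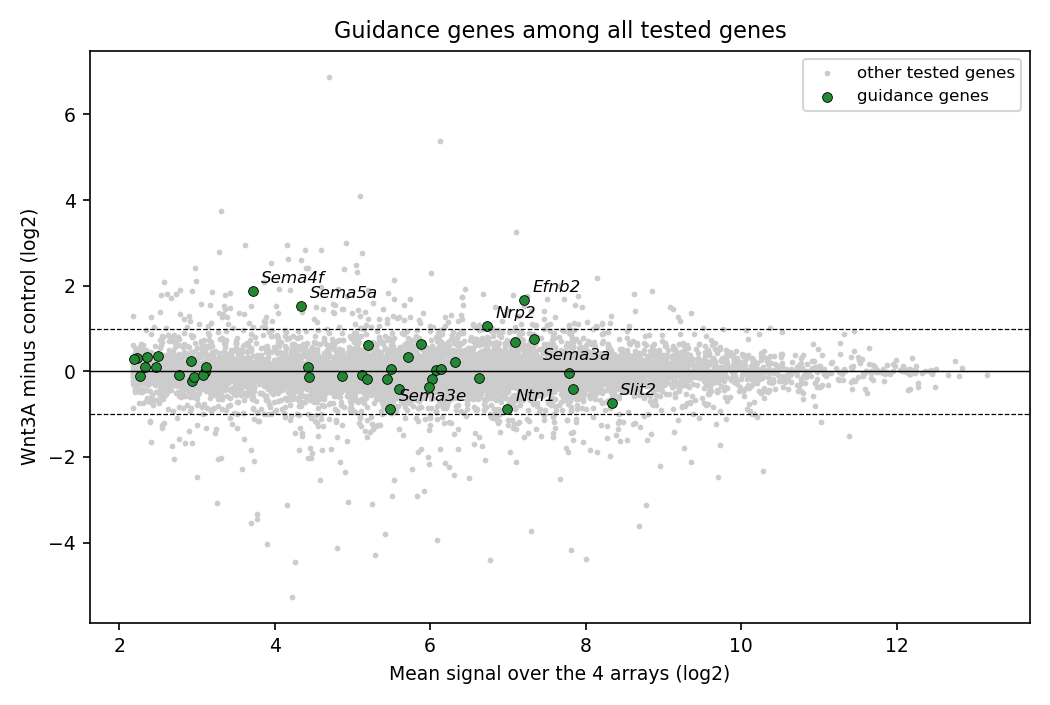
For the 9294 tested genes the difference between Wnt3A and control is plotted against the mean signal over the 4 arrays, both in log2 units, with the 42 tested guidance genes as large green points and dashed lines at a 2-fold difference. Efnb2, Sema5a, Nrp2 and Sema4f lie above the upper dashed line and no guidance gene lies below the lower one.

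Promoters are shown for Efnb2, Sema5a, Nrp2 and Sema3e, chosen after their values were seen as members with a wide difference on both arrays and 1 window in the table. Each is the 250 bases before the transcription start in RefSeq, build GRCm38.p6, 5′ to 3′ in the direction of the gene, and capitals mark matches to CTTTGA or CTTTGT on either strand, the core recognised by LEF and TCF proteins, the DNA-binding partners of β-catenin. The window of Efnb2 is chr8:8661243-8661492 on the minus strand. The others are chr15:32244563-32244812 for Sema5a, chr1:62703067-62703316 for Nrp2 and chr5:14025026-14025275 for Sema3e, all on the plus strand.
Efnb2: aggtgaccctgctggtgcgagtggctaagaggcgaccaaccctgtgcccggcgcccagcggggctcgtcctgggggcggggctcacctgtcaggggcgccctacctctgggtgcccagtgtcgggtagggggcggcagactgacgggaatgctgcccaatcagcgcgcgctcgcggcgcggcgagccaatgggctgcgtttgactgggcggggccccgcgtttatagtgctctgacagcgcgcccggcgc
Sema5a: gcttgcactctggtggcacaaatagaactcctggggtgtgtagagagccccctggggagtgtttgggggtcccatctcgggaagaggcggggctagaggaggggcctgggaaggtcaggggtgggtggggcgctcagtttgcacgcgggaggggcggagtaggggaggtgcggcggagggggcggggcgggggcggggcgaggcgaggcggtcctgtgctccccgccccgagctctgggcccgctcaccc
Nrp2: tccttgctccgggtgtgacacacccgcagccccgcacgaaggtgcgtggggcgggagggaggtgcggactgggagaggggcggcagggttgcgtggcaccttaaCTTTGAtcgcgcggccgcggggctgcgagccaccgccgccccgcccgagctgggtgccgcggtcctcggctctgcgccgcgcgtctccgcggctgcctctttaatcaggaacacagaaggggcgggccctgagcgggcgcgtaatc
Sema3e: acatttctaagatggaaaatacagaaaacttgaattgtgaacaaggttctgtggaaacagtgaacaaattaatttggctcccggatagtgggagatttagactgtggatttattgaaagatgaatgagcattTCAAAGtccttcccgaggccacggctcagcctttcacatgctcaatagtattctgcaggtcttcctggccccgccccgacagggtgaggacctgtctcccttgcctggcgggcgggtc

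Nrp2, higher with Wnt3A, held 1 match, CTTTGA on the gene's strand from base -146 to -141, counted back from the start. Sema3e, lower with Wnt3A, also held 1, CTTTGA on the opposite strand from -118 to -113. The windows of Efnb2 and Sema5a held 0. Those of Efnb2, Sema5a and Nrp2 were rich in G and C, at 72.0%, 72.0% and 72.4%, while that of Sema3e was at 48.0%. Windows were found for 49 of the 56 members, and in 10 of these (20.4%) at least 1 window held a match, beside 30.8% of the 27025 genes in the table. A match is a run of letters and not a bound site, and the letters missing from these windows may stand elsewhere.

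Other genes that take part in guidance were read from lists of partners and of signal transducers. Of 20 partner genes 14 were on the array and 6 were tested, 4 higher and 2 lower, with a median difference of 0.04. In limma 0 passed, and 1 of the 6 had an unadjusted p under 0.05, which is 16.7% beside 5.68% of all tested genes. That gene was on the higher side, where the background was 2.46%. Timp3, an inhibitor of the metalloproteases that shed surface proteins, read 9.15 and 8.86 on the control arrays and 9.62 and 10.38 with Wnt3A, with an estimate of 1.002 (SE 0.31, adjusted p = 0.809 in limma) and of 0.62 without Wnt3A replicate 2. Kdr, the gene of a VEGF receptor that works with neuropilins, was close to the limit and differed by -0.26. Dcc, the classical netrin receptor gene, differed by 0.21. The gene of the Slit-binding glypican Gpc1 differed by -0.23; the differences of Kdr and Gpc1 were above 0 after scaling to hybridization controls.

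Of 48 transducer genes 41 were on the array and 37 were tested, 21 higher and 16 lower, with a median difference of 0.05. In limma 0 passed over all genes, and 3 had an unadjusted p under 0.05, which is 8.11% beside 5.68% of all tested genes. All 3 were higher, where the background was 2.46%. Sos1, an exchange factor for Ras and Rac that is recruited to Robo, read 3.25 and 3.34 on the control arrays and 3.91 on both Wnt3A arrays, a difference of 0.62 that was 0.21 for the mean of its probe sets. Trio, an exchange factor that acts below netrin receptors, read 7.70 and 7.62 on the control arrays and 8.21 and 8.22 with Wnt3A, or 0.56 more (SE 0.18, adjusted p = 0.809 in limma). Chn2, a chimaerin that turns Rac off, read 2.30 and 3.05 on the control arrays and 3.56 and 4.76 with Wnt3A; its difference of 1.48 was 0.89 without Wnt3A replicate 2. Ngef, the gene of the Eph-bound exchange factor ephexin, read 3.29 and 4.50 on the control arrays and 4.51 and 6.18 with Wnt3A. The difference of Ngef was 1.45 (SE 0.70), 0.61 without Wnt3A replicate 2, 2.28 without Wnt3A replicate 1 and 0.84 without control replicate 1; its lower Wnt3A array stood level with its higher control, while the Sos1 and Trio groups were clearly apart.

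The 14 untested members were Efna5, Epha3, Epha5, Epha6, Epha8, Ntn3, Ntn4, Plxna1, Plxnc1, Robo4, Sema4a, Sema5b, Sema6d and Slit3, with means from 1.21 to 2.12. In 4 of them at least 1 array read above the limit. Sema4a, a transmembrane semaphorin, read 2.31 and 2.05 on the control arrays and 1.68 and 1.62 with Wnt3A, and Ntn4 read 1.92 and 1.93 on the control arrays and 1.61 and 1.41 with Wnt3A. With all 56 members counted, the groups did not overlap for 11 on the higher side (19.6%, beside 14.5% of all 12393 genes on the array) and 9 on the lower side (16.1%, beside 19.2%).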

How the data were processed

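The deposited table gives a signal for each probe set on each array, read here as log2 because the values lie between 0.50 and 13.23; the base is unstated, and a different one would rescale all differences. The submitters' processing notes name GCOS and PLIER. How the authors normalized the values is not given in the sources used here. Column medians were 4.15 to 4.22, so the values were used as deposited. There are 22690 probe sets, 64 of them array controls; 20380 had 1 symbol, 691 had several and were not named, and 20351 were matched by Entrez ID to RefSeq symbols (GRCm38.p6).

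For each gene the probe set with the highest mean was used, and genes at or under a mean of 2.18 were left out of the tests. R 4.3.3 with limma 3.58.1 (lmFit, eBayes with an intensity trend, two-sided) compared the groups on all tested genes, with Benjamini-Hochberg adjustment over all 9294 and a threshold of 0.05. The moderated fit had 4.68 degrees of freedom. The procedure was run on simulated data with independent noise on each array. Same-numbered arrays here deviated together (correlation 0.478), so that run does not show how the fit performs on these data. Promoter windows came from RefSeq.

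The members, lists and alternatives were chosen with earlier results of these data known. Members were named by rule: 2-fold apart without overlap, unadjusted p under 0.05, the brightest probe set of a family, 18 preset genes of which 17 were on the array, probe sets of opposite sign, and the 4 list genes of lowest p; other members given with their 4 array values (Epha2, Ephb6, Plxnd1, Sema4a, Ntn4) and Neo1 were chosen after their values were seen.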

Additional observations from a re-analysis of the deposited data

How the results depend on the processing

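No paired analysis is called for by the labels, which give the groups the same replicate numbers without saying that they mark shared cultures. Deviations of same-numbered arrays from their group means correlated at 0.478 over the tested genes. With the replicate number as a block, 83 of all tested genes passed in limma and 0 guidance genes did; Efnb2 then had an adjusted p of 0.0736 in limma.

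Scaling to hybridization controls gave 1 guidance gene and 49 genes in all past the threshold and a median of 0.36 for the tested guidance genes. It put 14 tested guidance genes, and Kdr and Gpc1, from below 0 to above it; among the genes named by rule these were Efna1 (0.15), Efnb1 (0.13), Ephb4 (0.21), Plxnb2 (0.28), Sema4d (0.22), Sema6c (0.15), Kdr (0.061) and Gpc1 (0.088). With no filter on dim genes the median was -0.031. With the dimmer 50% left out it was -0.066, 1 gene in all passed, and 2 guidance genes were 2-fold apart, since Sema4f and Sema5a were then under the limit. Averaging all probe sets of a gene put Sema4d at 0.12 and Sema6c at 0.010, and moved Efnb2 to 1.01, Ntn1 to -0.42 and Sos1 to 0.21.

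Leaving out 1 array at a time gave a median from -0.027 to 0.088, 4 to 5 guidance genes 2-fold apart (1 array against 2 meets that rule more easily) and 0 past the threshold. It turned the direction of 21 of the 42 tested members and of Gpc1. Among the genes named by rule the values ranged from -0.44 to 0.10 for Efna1, -0.47 to 0.10 for Efnb1, -0.68 to 0.77 for Epha7, -0.43 to 0.35 for Plxnb2, -0.38 to 0.82 for Robo1, -0.13 to 1.64 for Sema3a, -0.058 to 0.77 for Sema3c, -0.20 to 0.015 for Sema4d, -1.72 to 0.23 for Slit2 and -0.61 to 0.15 for Gpc1. Over all alternatives in which they were tested, 16 of the 42 members kept their direction, among them Efnb2, Sema5a, Nrp2, Ntn1, Sema3e and Nrp1. Genes whose groups do not overlap, as in these, cannot change direction when 1 array is left out. Sema4f, whose difference 1 array made, and Ephb3, with a difference of 0.04, kept theirs as well. Over all tested genes, neither the directions turned on leaving out 1 array nor those kept in every alternative were counted. The background correction and the scan as a block were not run, as no scanner files were used here.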
